A study of Mus musculus with 14 samples.

Results

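Cytosolic ribosomal protein genes encode the proteins of the ribosome that translates messenger RNA outside mitochondria. They were taken as every row of the deposited FPKM table whose whole gene name is Rpl or Rps with a number and an optional a, x or l, or is Rpsa, Rplp0, Rplp1 or Rplp2, with ribosomal protein S6 kinases left out. The rule found 61 rows of 39721, 34 with a large subunit name and 27 with a small subunit name. A further 18 members sit only in rows that name several genes, 14 of the large and 4 of the small subunit, so 79 names were found in all. Of the 61 rows, 59 passed the filter of at least 1 FPKM in at least 2 libraries. Rpl10l was listed at 0 in every library and Rpl3l reached at most 0.710 FPKM, so these paralogues, known from testis and from muscle, were not tested.

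The libraries are of polyadenylated RNA from primary macrophages, which were differentiated from marrow cells of male C57Bl6/J mice aged 6 to 12 weeks in medium conditioned by L929 cells, a source of CSF-1. The first stimulus, for 24 h, was Poly I:C at 100 ng/mL or PBS, and after washing the second was LPS or PBS for 2 h or 6 h. Poly I:C mimics viral double-stranded RNA and signals through TLR3 and cytosolic sensors, and LPS, from the outer membrane of Gram-negative bacteria, signals through TLR4. The dose of LPS is not stated for these groups. The groups were Poly I:C then LPS, Poly I:C then PBS, and PBS then LPS with 2 libraries each at each time, and PBS then PBS with 1 library at each time, 14 libraries in 8 groups. The labels do not say whether the replicates of a group were separate animals or cultures, so p-values measure no more than the variation among these libraries, and this may be technical.

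The ribosome has a small subunit, which reads the messenger RNA, and a large subunit, which joins amino acids and holds the exit tunnel. One copy of nearly every protein goes into each ribosome, and free ribosomal proteins are degraded. Their messenger RNAs are abundant and begin with a short run of pyrimidines, the TOP motif, through which mTOR signalling and the protein LARP1 set their translation and stability. Several members have uses outside the ribosome, such as the binding of Mdm2 by Rpl5 and Rpl11.

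Absolute depth per library is unknown, and the smallest steps between weak genes show that what 1 fragment is worth differed up to 2.94-fold between libraries. Of the 9 listed macrophage markers 8 had a row. Their summed level was 5361 to 8660 FPKM in libraries that had received Poly I:C first and 13857 to 20639.8 FPKM in those that had received PBS first, with none at 0. Most of that gap was Lyz2, or lysozyme, with 2408 to 4397 FPKM after Poly I:C and 10930.4 to 16240.4 FPKM after PBS. The other 7 summed to 2282 to 4263 FPKM after Poly I:C and 2242 to 4399 FPKM after PBS, ranges that overlap, although Csf1r and Itgam were lower in every Poly I:C library than in any PBS-first library. The 6 T and NK cell markers, of which 4 to 6 were at 0 in a group, summed to at most 0.28 FPKM in any library, the 3 erythroid markers with a row to at most 0.33 FPKM and the B cell markers to at most 1.46 FPKM. Stromal markers summed to 22.1 to 105 FPKM after Poly I:C and 14.4 to 59.5 FPKM after PBS, and dendritic cell markers to 3.87 to 10.2 FPKM after Poly I:C and 0.14 to 3.93 FPKM after PBS. Neutrophil and granulocyte markers summed to 0.26 to 8.33 FPKM after Poly I:C and 1.25 to 2.15 FPKM after PBS. The part of these lists in the results below was not tested. In bulk RNA, fewer cells of a type and less RNA per cell cannot be told apart.

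One library stood apart for these genes. In the PBS-then-LPS pair at 2 h, all 59 tested members were higher in replicate 1 than in replicate 2, by a median of 1.56-fold, against a median of at most 1.13-fold between replicates of the other groups. Over all tested rows the median difference within that pair was 0.05 on the log2 scale. Transcripts of the mitochondrial locus took 1.52% of named FPKM in replicate 1 and 2.82% in replicate 2. Counts of called members and of related lists that use this pair are given with and without its libraries.

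Members were among the most abundant transcripts. The median of their mean levels was 415 FPKM, against 8.67 FPKM over all tested rows, and 1.75% of tested rows lay above the median member. FPKM is per length of transcript, and on that basis these levels were set beside each other. Over the 59 members mean level and spliced length still had a Spearman's rank correlation of -0.338 (Pearson's r with log2 length -0.106). The part of length in the ranking was not tested. Averaged over 14 libraries, the highest members included Rps29, a small zinc-binding protein of the small subunit, at 1448 FPKM, Rplp1 of the large subunit stalk at 1445 FPKM, Rps24 at 1261 FPKM, and Rpl41, the smallest ribosomal protein, at 1054 FPKM. The lowest tested member was Rpl39l, a paralogue of Rpl39 known from testis, at 1.51 FPKM. The next lowest, Rpl15, averaged 147 FPKM. Of the 59 members, 58 averaged at least 50 FPKM. In 6 cases another row of over 10 FPKM lay in the same assembled locus (Rpl4, Rpl15, Rpl18, Rpl35a, Rps18 and Rps25). For Rpl15 the other row averaged 38.6 FPKM.

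**Figure D1:**
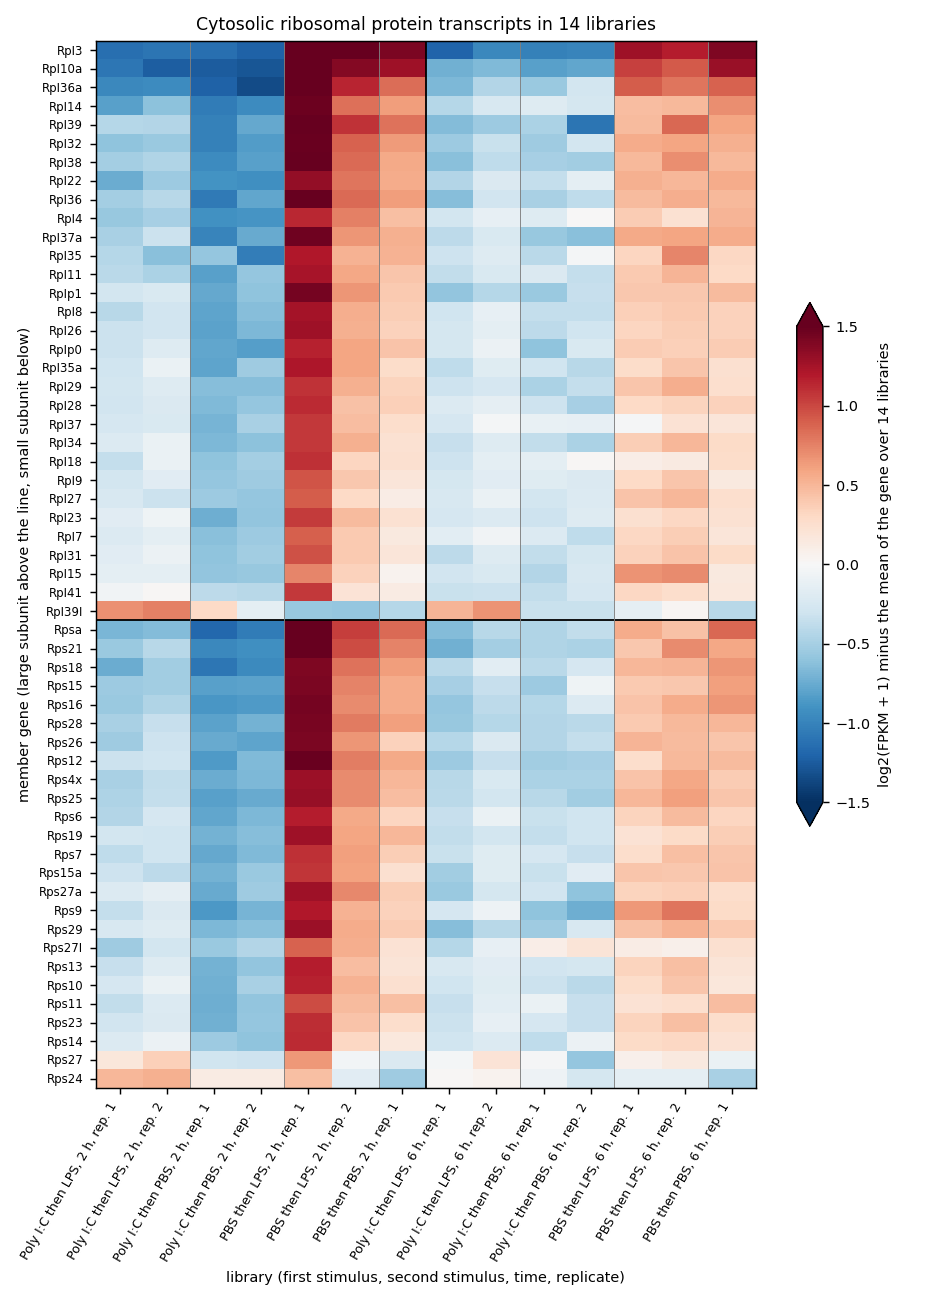
Level of 56 of the 59 tested members (rows, large subunit above the line and small subunit below, each ordered by its Poly I:C difference before LPS at 2 h) in 14 libraries (columns). Colour is log2(FPKM + 1) minus the mean of the gene over the libraries, limited to 1.5 either way. Most rows are blue in the Poly I:C libraries and red in the PBS-first libraries, deepest in replicate 1 of PBS then LPS at 2 h. Rps24 and Rpl39l do not follow this pattern. Both are highest where LPS followed Poly I:C at 2 h. Where PBS followed Poly I:C at 6 h, both lie below the mean of the gene.

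The comparison of Poly I:C with PBS before LPS asked whether the first stimulus altered the transcripts reached after the second. At 2 h, 55 of the 59 members were lower and 2 higher in cells that had received Poly I:C, and their median difference was -1.20 on the log2(FPKM + 1) scale, or 0.435-fold. Calls were made by limma, with Benjamini-Hochberg adjustment over 11977 rows and a limit of 0.05. Over all these rows 28.5% were called lower and 32.6% higher, with a median of 0.05. The called decreases ranged from 36.2% to 86.2%. The libraries of the 2 groups did not overlap for 55 lower and 3 higher members, against 36.4% of all rows lower and 41.2% higher without overlap. The large subunit members had 31 lower and 1 higher of 32, with a median of -1.17, and the small subunit members 24 lower and 1 higher of 27, with a median of -1.20. With each of the 4 libraries left out in turn, 54 to 55 members were lower and 2 to 3 higher. The median was -0.90 without replicate 1 of PBS then LPS and -1.497 without replicate 2.

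Rpl3, which lies next to the peptidyl transferase centre (chr15:80077781-80083406, GRCm38, 10 exons), had 59.9 and 61.7 FPKM after Poly I:C then LPS at 2 h, against 512 and 388 FPKM after PBS then LPS. Both Poly I:C libraries lay far below both PBS-first libraries, and the difference was -2.85 ± 0.14 (SE, limma adjusted p = 9.03e-08). Rpl10a, the protein of the mobile L1 stalk (chr17:28328471-28331032), had 58.7 and 52.8 FPKM against 479.6 and 329 FPKM, a difference of -2.81 ± 0.16. Rpl36a (chrX:134585654-134588062) had 94.0 and 95.0 FPKM after Poly I:C, against 657 and 406 FPKM, a difference of -2.44 ± 0.20. Rpsa, a small subunit protein also known as the laminin receptor (chr9:120127766-120132369), had 109.6 and 112 FPKM against 574 and 363 FPKM, a difference of -2.03 ± 0.19. These 4 members showed the largest decreases of the 59 at 2 h before LPS. Without replicate 1 of PBS then LPS their differences were -2.65, -2.54, -2.09 and -1.70, all called.

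Other members were named for their place in the ribosome or for roles outside it. Rplp0, the base of the large subunit stalk that binds translation factors, had 371 and 405 FPKM after Poly I:C then LPS, against 1033 and 701 FPKM after PBS then LPS, a difference of -1.13 ± 0.19. Its partner Rplp1 had 1086 and 1117 FPKM against 3537 and 2079 FPKM, at -1.30 ± 0.22. Rpl11, which binds 5S rRNA and Mdm2, differed by -1.34 ± 0.19. Rps6, the substrate of S6 kinase, differed by -1.22 ± 0.18 and Rps19, a gene mutated in human Diamond-Blackfan anaemia, by -1.22 ± 0.18. Rps27a, made as a fusion with ubiquitin, differed by -1.16 ± 0.19, the X-linked Rps4x by -1.43 ± 0.17, and Rpl22 by -1.70 ± 0.17. Rpl39, at the exit tunnel, had 166 and 164 FPKM against 676 and 477 FPKM, at -1.78 ± 0.23. All of these were called, and in each the libraries of the groups did not overlap. The smallest called decrease was that of Rpl41, at -0.65 ± 0.22 (limma adjusted p = 0.0281). Its call was lost when any 1 library of the comparison but replicate 2 of PBS then LPS was left out, and the difference was -0.22 without replicate 1 of that group.

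The same comparison before PBS asked what Poly I:C left behind without LPS. At 2 h after PBS, 54 of 59 members were lower and 2 higher, with a median of -1.08 (0.472-fold), against 22.4% of all rows lower and 24.9% higher. This comparison uses 1 PBS-then-PBS library, whose spread was taken from the other groups. Rpl3 had 60.3 and 56.7 FPKM after Poly I:C then PBS, against 356 FPKM after PBS then PBS, a difference of -2.59 ± 0.17. Rpl10a had 52.3 and 51.3 FPKM against 306 FPKM, at -2.54 ± 0.19, and Rpl36a 79.1 and 71.9 FPKM against 329.5 FPKM, at -2.11 ± 0.25. The Poly I:C libraries lay below the control library for 56 members and above it for 3, against 43.2% of all rows below and 47.7% above.

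**Figure D2:**
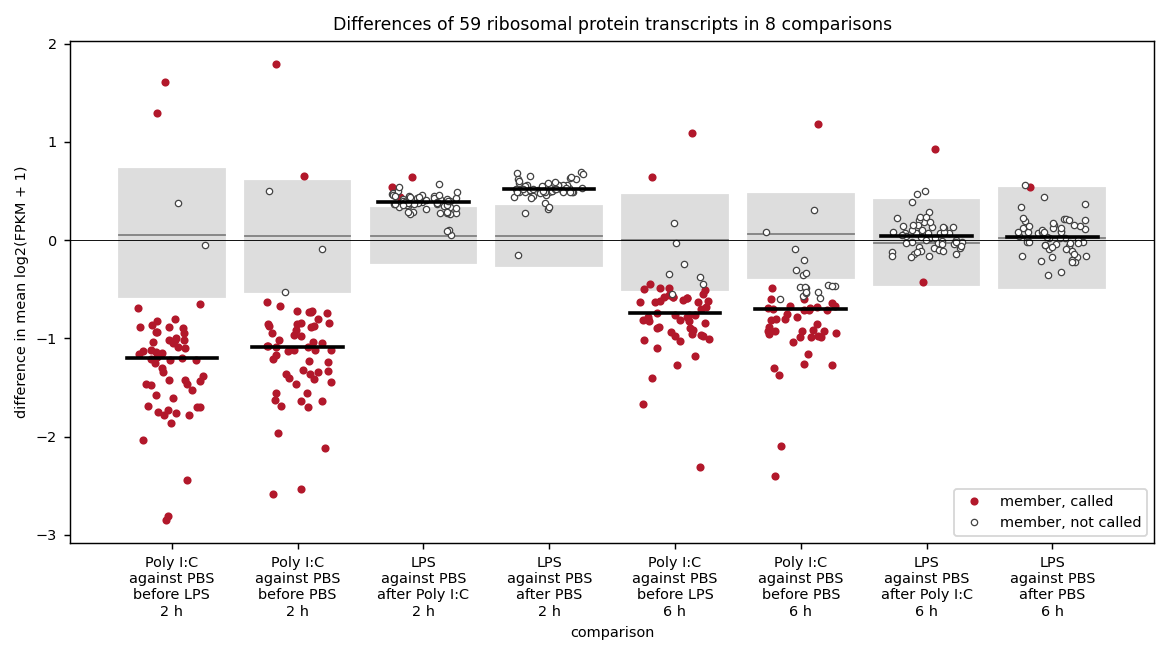
Difference in mean log2(FPKM + 1) of the 59 members (points, filled where called at a limma adjusted p under 0.05) in the 8 comparisons of a pair of treatments at one time. Black bars are member medians, grey boxes the quartiles of all 11977 tested rows with their median as a grey line. Members lie low in the 4 Poly I:C comparisons, with medians from -1.20 to -0.70, and in a narrow band above 0 in the LPS comparisons at 2 h.

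At 6 h the median differences were smaller. Before LPS, 50 of 59 were lower and 2 higher, with a median of -0.75, against 25.9% of all rows lower and 23.7% higher. Without replicate 1 of Poly I:C then LPS 23 were called lower, and without replicate 2 of PBS then LPS 30. The medians were then -0.61 and -0.64. Before PBS, 39 of 59 were lower and 1 higher, with a median of -0.70, against 16.1% of all rows lower and 18.4% higher, and leaving out either Poly I:C library brought the count of lower members to 21 or 22. Rpl3 had 57.4 and 67.3 FPKM after Poly I:C then LPS against 323 and 302 FPKM after PBS then LPS (-2.31 ± 0.14). Before PBS it had 65.3 and 66.4 FPKM against 351 FPKM (-2.40 ± 0.17). Rpl10a had 76.1 and 79.2 FPKM after Poly I:C then LPS, against 258 and 239 FPKM after PBS then LPS (-1.66 ± 0.16). Rps27l, a paralogue of Rps27 known as a p53 target, had 172 and 182 FPKM after Poly I:C then PBS and 188 FPKM after PBS then PBS at 6 h, a difference of -0.09 ± 0.18 that did not pass the test. At 2 h before PBS it was lower by -0.72 ± 0.18.

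Some members were not called lower. Rps24, a small subunit protein also mutated in Diamond-Blackfan anaemia (chr14:24490681-24496146), was among them. At 2 h it had 1739 and 1787 FPKM after Poly I:C then LPS against 1684 and 1093 FPKM after PBS then LPS, a difference of 0.38 ± 0.18 that was not called, although without replicate 1 of PBS then LPS it was 0.69 and called. It had 1339.8 and 1339 FPKM after Poly I:C then PBS against 851 FPKM, a called difference of 0.65 ± 0.22 (limma adjusted p = 0.0353). That call was lost when either Poly I:C library was left out, without the filter, with the libraries of 2 h alone, and when libraries were scaled to protein-coding rows. Rps27, a zinc-finger protein of the small subunit (chr3:90212725-90213637), had 544 and 621 FPKM after Poly I:C then LPS at 2 h, against 762 and 471 FPKM after PBS then LPS. Its differences were -0.04 ± 0.23 at 2 h and -0.02 ± 0.23 at 6 h before LPS, and -0.09 ± 0.28 and -0.20 ± 0.28 before PBS, none called. Scaling to protein-coding rows moved the first of these to -0.56, which was called, and moved the median of all coding rows to -0.38.

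The weakly expressed Rpl39l was higher after Poly I:C then LPS, at 2.82 and 3.01 FPKM at 2 h against 0.609 and 0.585 FPKM after PBS then LPS (1.29 ± 0.17). At 6 h it had 2.38 and 2.79 FPKM against 1.17 and 1.42 FPKM (0.64 ± 0.17), a call lost when replicate 2 of Poly I:C then LPS or replicate 1 of PBS then LPS was left out. The groups did not overlap at either time. Its parent Rpl39 was lower in the same comparisons, by -1.78 ± 0.23 and -1.27 ± 0.23. In the Poly I:C comparisons before PBS, Rpl39l was not called at either time. After Poly I:C then PBS it had 1.92 and 1.14 FPKM at 2 h, against 0.771 FPKM after PBS then PBS. At 6 h it had 0.888 and 0.883 FPKM against 0.776 FPKM.

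**Figure D3:**
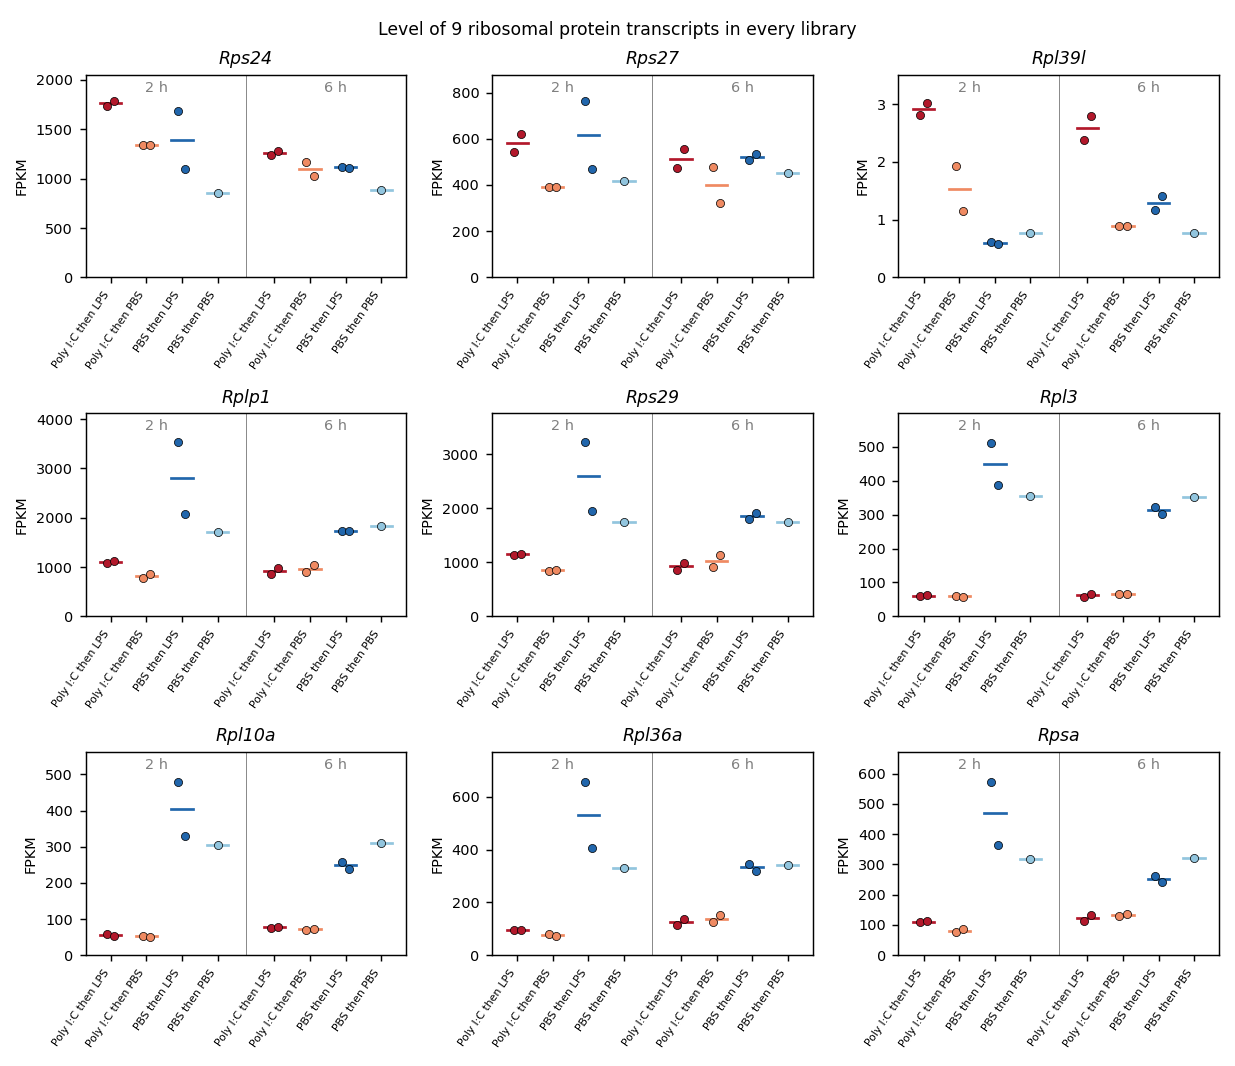
FPKM of 9 members in every library, with group means as bars (2 libraries a group, 1 for PBS then PBS, 2 h left and 6 h right in each panel). Rps24 is higher in each Poly I:C group than in the matched PBS-first group and Rps27 differs little, Rplp1, Rps29, Rpl3, Rpl10a, Rpl36a and Rpsa are lower in each Poly I:C group, and Rpl39l is below 3.1 FPKM throughout.

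The share of a library taken by the members moved with the first stimulus. The 61 rows held 2.42% and 2.34% of all FPKM after Poly I:C then LPS at 2 h, and 2.59% and 2.79% after Poly I:C then PBS. They held 8.36% and 6.07% after PBS then LPS, and 6.67% after PBS then PBS. At 6 h the shares were 2.90% and 3.39% after Poly I:C then LPS, and 3.88% and 3.82% after Poly I:C then PBS. They were 4.31% and 4.30% after PBS then LPS, and 6.47% after PBS then PBS. The 8 Poly I:C libraries lay below the 6 PBS-first libraries. Summed FPKM itself differed, from 462723 to 964259 over the libraries, and was lowest after PBS then PBS. The summed FPKM of large subunit rows was 0.688 to 0.822 of that of small subunit rows in Poly I:C libraries and 0.890 to 0.916 in PBS-first libraries.

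**Figure D4:**
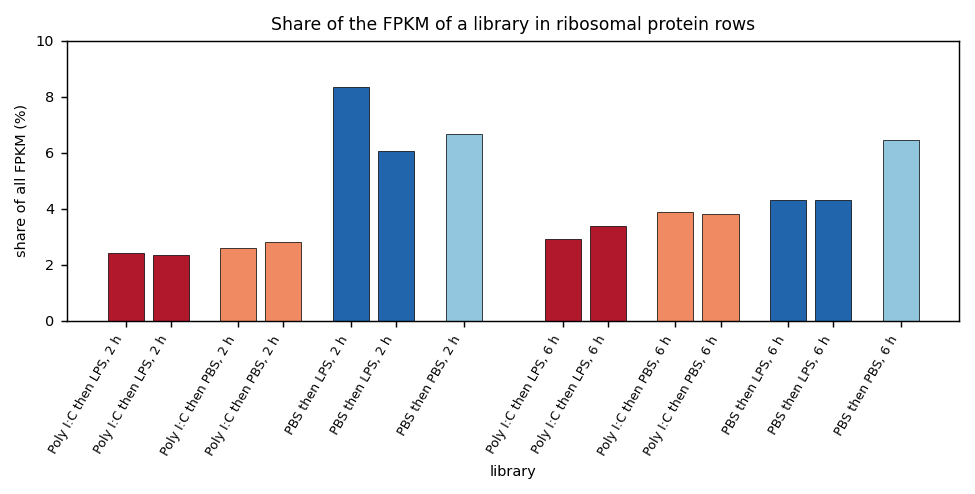
Share of the summed FPKM of each library, in %, held by the ribosomal protein rows (bars, 1 per library, coloured by group). All 8 Poly I:C bars, from 2.34% to 3.88%, are below all 6 PBS-first bars, from 4.30% to 8.36%.

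Differences among members were described by a second scale, added after the data had been seen, on which each library was centred on the median of its 59 members. The SD of a member over 14 libraries had a median of 0.18, against 0.75 over all tested rows. Centring takes out the shift that the members share and adds it to rows without that shift. The gap between these medians is thus partly fixed by the scale and is no measure of steadiness. The SD was under 0.1 for 11 members, with Rpl8 at 0.04, Rps7 at 0.05 and Rps6 at 0.06 the steadiest relative to the member median. It was over 0.5 for 6 members, among them Rpl39l at 0.93, Rpl3 at 0.82, Rps24 at 0.70, Rpl10a at 0.69 and Rpl36a at 0.50. Of the 59, 12 lay higher and 11 lower in all 8 Poly I:C libraries than in all 6 PBS-first libraries, and 36 overlapped. Over all rows 37.2% lay higher and 1.44% lower in this way on a scale that takes the members as its zero.

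Relative to the other members, Rps24 stood 1.92 to 2.67 above the member median in Poly I:C libraries and 0.82 to 1.28 above it in PBS-first libraries. Rps27 was 0.25 to 1.02 above it after Poly I:C and between -0.21 and 0.15 after PBS. Both small subunit members thus stood higher above the member median in every Poly I:C library than in any PBS-first library. At the other end, Rpl3 stood at -2.29 to -1.81 after Poly I:C and -0.69 to -0.43 after PBS, Rpl10a at -2.51 to -1.87 and -1.02 to -0.63, and Rpl36a at -1.68 to -0.83 and -0.60 to -0.33. Others included Rpl38, Rpl39, Rpl37a, Rpl36, Rps21, Rps25 and Rps28, lower without overlap, and Rpl7, Rpl9, Rpl18, Rpl23, Rpl37, Rpl39l, Rps10 and Rps14 higher.

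The same limma fit on the centred values, again over all rows, called 14 members above and 17 below the member median before LPS at 2 h, and 12 above and 12 below before PBS at 2 h. All rows are measured from the members on this scale, so 80.2% and 71.0% of rows were called in either direction. At 6 h it called 6 above and 14 below before LPS, with 57.1% of all rows, and 8 above and 7 below before PBS, with 56.7% of all rows. In these 4 comparisons Rps24 was called above the median by 1.58, 1.77, 0.83 and 1.10, and Rps27 by 1.16, 1.02, 0.63 and 0.59. Rpl3 was called below it by -1.65, -1.47, -1.66 and -1.61, and Rpl10a by -1.61, -1.42, -1.01 and -1.30. The counts rest partly on single libraries. Without replicate 1 of Poly I:C then LPS, 7 were above before LPS at 2 h, and without replicate 1 or 2 of Poly I:C then PBS, 5 or 7 were above before PBS at 2 h. Before LPS at 6 h, 5 to 6 were below when any 1 library was left out. Before PBS at 6 h, 5 were above without replicate 2 and 4 below without replicate 1 of Poly I:C then PBS.

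The order of the members' differences was alike before LPS and before PBS, comparisons that share no library. Across the 59 members, which are not independent replicates and share the library of each group, Pearson's r was 0.978 at 2 h and 0.936 at 6 h. Without replicate 1 or 2 of PBS then LPS at 2 h the first of these was 0.981 or 0.967. Over all 11977 rows it was 0.864 and 0.410. Between 2 h and 6 h it was 0.923 before LPS (0.923 and 0.916 without those replicates) and 0.939 before PBS, against 0.446 and 0.846 over all rows. Spearman's rank correlation over the members, between differences before LPS and before PBS, was 0.96 at 2 h and 0.849 at 6 h. Between 2 h and 6 h the rank correlation was 0.783 before LPS and 0.907 before PBS.

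**Figure D5:**
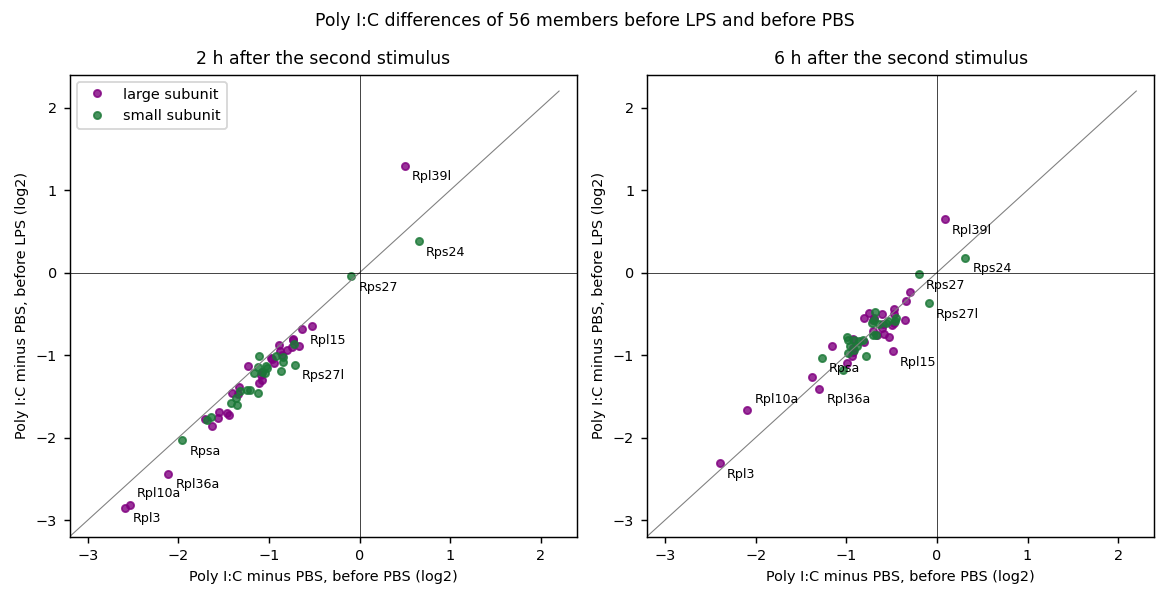
Poly I:C minus PBS difference in log2(FPKM + 1) of 56 of the 59 members before LPS (vertical) and before PBS (horizontal), at 2 h and 6 h, coloured by subunit, with the line of equality. Rps24 and Rpl39l stand at the upper right at both times, Rps24 at 0.38 and 0.65 at 2 h, and Rpl3 and Rpl10a at the lower left.

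Start-site sequence is shown for members at both ends of this order before LPS at 2 h whose RefSeq start lay at most 11 bases from the 5′ end of the deposited locus. Of the 59 tested members 45 had a RefSeq promoter window (GRCm38.p6, 300 bases). Each stretch below gives 50 bases before and 25 bases from the annotated start on, 5′ to 3′ on the gene's strand, with the longest run of 5 or more C or T within 25 bases of the start in capitals. Rps24 (chr14:24490628-24490702, plus strand) and Rps27 (chr3:90213624-90213698, minus strand) were not called and Rpl39l (chr16:10170178-10170252, plus strand) was called higher after Poly I:C, while Rpl10a (chr17:28328421-28328495, plus strand), Rpl36a (chrX:134585604-134585678, plus strand), Rpsa (chr9:120127716-120127790, plus strand) and Rpl14 (chr9:120571467-120571541, plus strand) were among the 5 members with the largest decreases.
Rps24: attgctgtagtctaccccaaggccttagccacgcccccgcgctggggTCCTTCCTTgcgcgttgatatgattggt
Rps27: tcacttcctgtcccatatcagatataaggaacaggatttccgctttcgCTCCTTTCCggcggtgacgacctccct
Rpl39l: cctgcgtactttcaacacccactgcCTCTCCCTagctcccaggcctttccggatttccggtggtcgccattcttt
Rpl10a: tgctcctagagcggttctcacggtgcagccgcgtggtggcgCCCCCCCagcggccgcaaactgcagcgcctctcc
Rpl36a: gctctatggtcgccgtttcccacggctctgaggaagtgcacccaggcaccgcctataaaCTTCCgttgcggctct
Rpsa: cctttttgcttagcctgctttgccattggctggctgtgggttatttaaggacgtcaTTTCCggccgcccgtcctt
Rpl14: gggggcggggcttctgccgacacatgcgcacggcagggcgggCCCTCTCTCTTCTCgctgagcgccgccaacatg
In Rps24 and Rps27 a run of 9 pyrimidines spanned the annotated start, and in Rpl36a and Rpsa the longest run was of 5 and lay downstream of it. In Rpl10a a run of 7 ended before the start. Rpl14, whose decrease was -1.86, had a run of 14 across its start. In Rpl39l the longest run, of 8, lay wholly upstream, and a shorter run, left in lower case, ended directly before the start. Among the stretches shown, long runs across the start were thus present in Rps24, Rps27 and Rpl14. Run length was not tested against the differences.

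Over the 45 windows, 22 (48.9%) had a run of 5 or more C or T that touched the 3 bases either side of the start, against 24.2% of 27025 gene windows. For members the start nearest the 5′ end of the deposited locus was used, and for all genes the first listed, so the shares are not strictly alike. Some member starts still lay far from that end, such as that of Rpl35a at 142353 bases. The letters CCGGAAG, on either strand of the 300 bases, were in 19 member windows (42.2%) and in 9.1% of all, GGGCGG in 25 (55.6%) and 35.9%, and TATAA in 12 (26.7%) and 25.5%. CCGGAAG and GGGCGG can share letters, and 10 member windows held both. A match is a description of letters, not of a site in use, and annotated starts may lie away from the starts in these cells.

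LPS itself left the members close to each other at 2 h. At 2 h after PBS, LPS raised no member past the test and lowered none, against 15.9% of all rows called in either direction by limma, while 32 members had an unadjusted p under 0.05. The median difference was 0.52, and for 57 of 59 members both LPS libraries lay above the control library, against 39.6% of all rows. On the centred scale the members spanned an interquartile range of 0.07, against 0.61 over all rows, and none was called, against 11.7% of all rows. The spread between the 2 PBS-then-LPS libraries bears on every one of these values. Without replicate 2, 56 members were called higher, without replicate 1 none, and 27 when the PBS-then-PBS libraries of 2 h and 6 h were pooled as controls. Rps29 had 3233 and 1956 FPKM after PBS then LPS and 1739 FPKM after PBS then PBS, a difference of 0.53 within that spread.

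After Poly I:C, LPS at 2 h raised 3 members and lowered none, against 22.8% of all rows called in either direction, with a median of 0.39. They were Rpl39l (0.65), Rpl23 (0.54) and Rpl15 (0.44). Rpl23, a large subunit protein that also binds Mdm2, had 384 and 414 FPKM after Poly I:C then LPS, against 260.5 and 287 FPKM after Poly I:C then PBS. Both LPS libraries lay above both others for 56 of the 59 members, against 38.5% of all rows, and 48 were called when the PBS-then-LPS pair, which is in neither group, was left out of the fit and of its estimate of spread. Leaving out any 1 library of the 2 groups left 0 or 1 called, and scaling to protein-coding rows gave 0 higher and 3 lower. On the centred scale the interquartile range was 0.10, against 0.56 over all rows, and no member was called, against 19.9% of all rows.

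At 6 h the median member differed little with LPS. After PBS, 1 member of 59 was called, with a median of 0.04, against 43.4% of all rows in either direction. Rpl15 had 223 and 229 FPKM after PBS then LPS, against 155 FPKM after PBS then PBS (0.55, limma adjusted p = 0.0201), and its call was lost when either LPS library was left out. After Poly I:C, Rpl39l was higher (2.38 and 2.79 FPKM against 0.888 and 0.883 FPKM, 0.93) and Rps27l lower (118 and 147 FPKM against 172 and 182 FPKM, -0.42), with a median of 0.04, against 43.9% of all rows in either direction. The call of Rps27l was lost without replicate 1 of Poly I:C then LPS or either Poly I:C-then-PBS library. When libraries were scaled to the FPKM of protein-coding rows, 53 members were lower after PBS and 24 after Poly I:C. That scaling moved the median of all coding rows to -0.55 and -0.31, and relative to it the members stood at -0.09 and 0.03. On the scale centred on the member median, 4 members were called above it after PBS, and 3 above and 1 below after Poly I:C. The share of all rows called on that scale at 6 h is not given here. The interquartile range of the members was 0.21 after PBS and 0.19 after Poly I:C, against 1.02 and 0.87 over all rows.

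No member showed an interaction of Poly I:C and LPS. At 2 h and at 6 h 0 of 59 were called in limma, with 1 and 0 members at an unadjusted p under 0.05, against 4.29% and 29.4% of all rows called in either direction. Without replicate 2 of PBS then LPS 8 members were called with a negative interaction at 2 h, and with scaling to protein-coding rows 6 with a positive one at 6 h.

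The times were compared within each treatment. After PBS then LPS, 34 of 59 were lower at 6 h than at 2 h of LPS, with a median of -0.51, against 26.0% of all rows lower, and Rpl39l was higher, a call lost without replicate 2 at 2 h or either replicate at 6 h. The count of lower members was 10 without replicate 1 and 56 without replicate 2 at 2 h, and 5 and 12 without replicates 1 and 2 at 6 h. After Poly I:C then LPS 1 member, Rpl10a, was called (0.47), against 40.0% of all rows in either direction, and leaving out any 1 library lost it. After Poly I:C then PBS 8 members were higher at 6 h than at 2 h, against 12.3% of all rows, a like share, led by Rpl36a (0.86) and Rpl4 (0.80). That count was 2 without replicate 1 at 2 h or replicate 2 at 6 h, 3 without replicate 2 at 2 h, and 39 with the PBS-then-LPS pair of 2 h out of the fit.

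The Poly I:C difference before LPS was itself tested between times. It was less negative at 6 h for 12 of 59 members and more negative for none, with a median change of 0.57, against 19.1% of all rows called higher, a like share. Rpl10a had the largest change, 1.15 ± 0.22 (limma adjusted p = 0.00200), followed by Rpl14 at 1.05 ± 0.26, Rpl36a at 1.03 ± 0.28 and Rpsa at 1.00 ± 0.26. The count was 53 without replicate 2 of PBS then LPS at 2 h, 5 without replicate 1 of Poly I:C then LPS at 2 h and 4 without replicate 2 of Poly I:C then LPS at 6 h. The median change was 0.24 without replicate 1 of PBS then LPS at 2 h.

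The 18 members found only in rows that name several genes moved much as the others. Of these rows 11 also name a small nucleolar RNA, so a value cannot be given to the ribosomal protein alone. Before LPS 16 were lower at 2 h and 10 at 6 h, and before PBS 14 and 8, with none higher. Over all rows 28.5% and 25.9% were lower before LPS, and 22.4% and 16.1% before PBS. Their medians were -1.13 and -0.48 before LPS and -1.05 and -0.54 before PBS. Before LPS at 2 h, 15 were lower and 1 higher without replicate 1 of PBS then LPS (median -0.87), and 17 lower without replicate 2 (median -1.37). The row of Rpl12 had 120.3 and 111 FPKM after Poly I:C then LPS at 2 h, against 814 and 503 FPKM after PBS then LPS, the largest decrease of the 18 at -2.46. The rows of Rplp2, the other stalk protein, Rps3, at the messenger RNA entry, Rpl10, which joins the large subunit last, Rpl5, the partner of Rpl11, and Rpl13a fell by 1.55, 1.14, 1.11, 1.26 and 0.93 on the log2 scale. In 11 of the 18 the decrease was at least 2-fold, and in 7 without replicate 1 of PBS then LPS.

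The rows of Rps20 and Rpl24 did not fall. Rps20 had 667 and 717 FPKM after Poly I:C then LPS at 2 h, against 858 and 529 FPKM after PBS then LPS, a difference of 0.04. The row of Rpl24 differed by -0.08, and it was called higher with LPS in each of the 4 comparisons, by 0.82 and 0.81 after PBS at 2 h and 6 h and by 0.74 and 0.82 after Poly I:C. It had 443 and 483 FPKM after Poly I:C then LPS at 2 h, against 272 and 281 FPKM after Poly I:C then PBS. That row also carries other gene names.

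Related genes were read from the same fit, and their counts are to be set beside the shares of all rows. Before LPS 28.5% of all rows were lower and 32.6% higher at 2 h, and 25.9% and 23.7% at 6 h. Before PBS 22.4% were lower and 24.9% higher at 2 h, and 16.1% and 18.4% at 6 h. Among 23 tested rows for ribosome assembly and rRNA processing, 19 were lower and 1 higher before LPS at 2 h, with a median of -1.49. At 6 h before LPS none was lower and 16 were higher, with a median of 0.91, while 50 members were lower. Rrs1, an assembly factor of the large subunit, differed by -1.49 at 2 h and 2.73 at 6 h, Gnl3, or nucleostemin, by -1.68 and 2.41, and Tsr1, an assembly factor of the small subunit, by -2.31 and 2.09. In PBS-first cells 20 of the 23 were lower with LPS at 6 h, against 20.6% of all rows, when the members' median was 0.04. The interaction at 6 h was called higher for 18 of these 23 rows, against 12.7% of all rows, and for 0 members. Before PBS 17 of the 23 were lower at 2 h and 8 at 6 h, with none higher. Without replicate 1 or replicate 2 of PBS then LPS, 20 of the 23 were lower before LPS at 2 h. Counts for this and the other related lists were repeated without single libraries for that comparison alone.

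Of 16 tested translation factors and other genes with a pyrimidine start, 14 were lower before LPS and 8 before PBS at 2 h. At 6 h 5 and 6 were lower, with 1 higher before LPS. The shares of all rows called lower were 28.5% and 22.4% at 2 h, and 25.9% and 16.1% at 6 h. Before LPS at 2 h Nap1l1, a histone chaperone, differed by -1.81, and the elongation factor subunits Eef1g and Eef1d by -1.65 and -1.61, while Pabpc1, the poly(A)-binding protein, differed by -0.07 and was not called. The 14 became 11 without replicate 1 and 15 without replicate 2 of PBS then LPS. Of 15 tested initiation factors, 8 were lower and 3 higher before LPS at 2 h (8 and 2 without replicate 1, 9 and 3 without replicate 2 of PBS then LPS), 2 lower and 7 higher at 6 h, and before PBS 5 lower and 3 higher at 2 h and 4 lower at 6 h. Of 15 tested rows for the control of ribosomal protein synthesis, 2 were lower and 1 higher before LPS at 2 h, and 3 lower and 4 higher without replicate 2 of PBS then LPS. Myc was lower in all 4 Poly I:C comparisons, by -1.44 and -2.74 before LPS at 2 h and 6 h and by -3.78 and -3.12 before PBS. Larp1 was lower before LPS at 2 h, at -0.47, and Mtor was not called, at -0.38. Over the 15 rows of this list the differences there ran from -1.44 to 1.83, with a median of 0.01. At 6 h before LPS 1 of the 15 was lower and 4 were higher, against 23.7% of all rows higher. Before PBS 2 were lower and 2 higher at 2 h, and 1 lower and 3 higher at 6 h, against 24.9% and 18.4% of all rows higher.

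Mitochondrial ribosomal proteins, the nearest like family, had 34 of 71 tested rows lower and 6 higher before LPS at 2 h (median -0.50). At 6 h 13 were lower and 13 higher (median 0.06). Of all rows 28.5% were lower and 32.6% higher at 2 h, and 25.9% and 23.7% at 6 h. At 2 h without replicate 1 of PBS then LPS the median of the mitochondrial rows was -0.21. Without replicate 2 it was -0.71. Before PBS these rows had 13 lower and 11 higher at 2 h and 2 lower and 8 higher at 6 h. The shares of all rows before PBS were 22.4% lower and 24.9% higher at 2 h, and 16.1% and 18.4% at 6 h. Of 211 pseudogene rows of cytosolic ribosomal proteins 92 were at 0 in every library and 39 were tested. Before LPS 18 were lower and 4 higher at 2 h, and 12 lower and 3 higher at 6 h. Before PBS 12 were lower and 2 higher at 2 h, and 13 lower and 2 higher at 6 h. Without replicate 1 of PBS then LPS 12 were lower before LPS at 2 h, and without replicate 2, 19. Together they held 99.5 to 508 FPKM per library, against 16070.4 to 56190.4 FPKM in member rows, and reads of near-identical copies can be split between them. Of 4 tested paralogues and fusions outside the name rule, Rpl22l1 was lower in all 4 Poly I:C comparisons, by -1.76 and -2.08 before LPS at 2 h and 6 h and by -1.59 and -2.32 before PBS, and Fau, fused to a ubiquitin-like domain, was called in none.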

How the data were processed

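Polyadenylated RNA of 14 macrophage samples was sequenced. The deposited table gives FPKM, fragments per length of transcript and library size, which the authors made with TopHat2, Cufflinks and Cuffnorm per the submitters' processing notes; their versions and options are not given in the sources used here. Those notes name mm9. However, all 61 member rows overlapped the gene of their name in GRCm38, and 21 shared its start and end, so GRCm38 coordinates are printed. Intervals for counting error need counts and are not given.

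Named rows reaching 1 FPKM in at least 2 libraries (11977) were analysed as log2(FPKM + 1), a scale that understates changes of weak genes. The model was limma 3.58.1 (R 4.3.3) with 1 mean per group over all 14 libraries and variances moderated with a trend on level (6 residual and a median of 3.99 prior degrees of freedom). P-values are 2-sided and were Benjamini-Hochberg adjusted within each of 14 comparisons. The single PBS-then-PBS library of each time takes its variance from the other groups. The script was tested on simulated data with 200 changed rows of 11977. It recovered 91.6% of log2 changes of 1 and 99.4% of changes of 2 in the comparison before LPS at 2 h, with 5.91% false calls, and 67.6% and 99.4% in the comparison before PBS, with 5.01%.

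Members, lists and comparisons were chosen with earlier results of these data known. Members named are a set chosen for their roles, up to 3 called increases and decreases per comparison with at least 5 FPKM and no overlap, the 5 highest and 5 lowest, and those not tested. Others were named after their values were seen, as were some genes of the related lists. The settings varied are named in the closing section. Replicate numbers do not pair the libraries, since the labels give them no shared source and like-numbered libraries deviated with correlations of -0.19 to 0.08 over 15 pairs of groups. Rps4l and Rpl13 were not analysed here, and 3 of the 59 tested members, which stay in the counts and medians, are not reported here by name.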

Additional observations from a re-analysis of the deposited data

Results flagged for a closer look

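The difference of the Poly I:C effect before LPS between 6 h and 2 h was called for 12 members, of which 11 are given here, by the test of that difference itself, all in the positive direction, so that the 6 h deficit was the smaller. The change in log2 difference was 1.15 for Rpl10a, 1.05 for Rpl14, 1.03 for Rpl36a, 1.00 for Rpsa, 0.97 for Rps18, 0.96 for Rpl4, 0.85 for Rpl22, 0.75 for Rpl37, 0.75 for Rps27l, 0.74 for Rpl32 and 0.54 for Rpl3. Over all tested rows 19.1% were called in this direction. Each value uses the PBS-then-LPS pair at 2 h, in which replicate 1 was the higher for all 59 members, and the part of that library in these values is given by the counts without it, 8 higher and 4 lower, against 53 higher without replicate 2.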

How the results depend on the processing

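Across the 4 Poly I:C comparisons the median difference of the members was negative under every setting that was run, and with 1 library left out at a time it ranged from -1.497 to -0.90 and from -0.79 to -0.61 before LPS at 2 h and 6 h, and from -1.13 to -1.02 and from -0.71 to -0.66 before PBS. Among the named members' values, 759 of those under the planned settings kept their direction and side of the threshold, 58 lost a call and 11 gained one; under the settings added later these numbers were 239, 1 and 13, and none reversed. Depth limits what can be said of Rpl3l, Rpl10l and Rpl39l.

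Leaving out 1 library at a time gave these ranges of called members. Before LPS, 2 to 3 higher and 54 to 55 lower at 2 h, and 1 to 2 higher and 23 to 39 lower at 6 h. Before PBS, 1 to 2 higher and 47 to 51 lower at 2 h, and 1 higher and 21 to 22 lower at 6 h. For LPS after PBS, 0 to 56 higher at 2 h and 0 higher at 6 h, with medians of 0.20 to 0.84 and 0.01 to 0.06. For LPS after Poly I:C, 0 to 1 higher at 2 h and 0 to 1 lower at 6 h, with medians of 0.34 to 0.44 and -0.03 to 0.13. The interaction had 0 to 8 lower at 2 h, with medians of -0.47 to 0.16, and medians of -0.09 to 0.10 at 6 h. The difference of the Poly I:C effect between times had 4 to 53 higher and 0 to 4 lower, with medians of 0.24 to 0.86. From 2 h to 6 h, LPS after PBS had 0 to 2 higher and 5 to 56 lower (medians -0.81 to -0.20), LPS after Poly I:C 0 higher (medians -0.06 to 0.13) and PBS after Poly I:C 2 to 6 higher and 0 to 1 lower (medians 0.30 to 0.38). On the centred scale 7 to 12 were higher and 12 to 19 lower before LPS at 2 h, 5 to 7 and 8 to 11 before PBS at 2 h, 4 to 5 and 5 to 6 before LPS at 6 h, and 5 to 8 and 4 to 6 before PBS at 6 h.

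Among planned settings, a pseudocount of 0.1 gave 1 member with a more negative Poly I:C difference at 6 h than at 2 h. Without the filter on low values 1 member was higher with LPS after Poly I:C at 2 h and 0 lower at 6 h, 21 were lower with Poly I:C before PBS at 6 h, 13 were lower at 6 h than at 2 h of LPS after PBS and 0 higher after Poly I:C. Median-of-ratios scaling gave a median of -0.74 before PBS at 6 h. Without the trend on level 1 was higher with LPS after Poly I:C at 2 h, 0 lower at 6 h, and 1 had a more negative Poly I:C difference at 6 h, while on the centred scale 8 were higher before LPS and 5 before PBS at 2 h, 6 lower before LPS at 6 h, and 4 higher and 2 lower before PBS at 6 h. With libraries of 1 time alone 0 were higher with LPS after Poly I:C at 2 h and 4 at 6 h, 1 higher with Poly I:C before PBS at 2 h (5 on the centred scale), 3 higher and 1 lower with LPS after PBS at 6 h, and 1 had a positive interaction at 6 h. With the PBS-then-PBS libraries pooled 27 were higher with LPS after PBS at 2 h and 2 at 6 h. With a replicate block, which the labels do not justify, 1 was higher with LPS after Poly I:C at 2 h and 0 lower at 6 h.

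The remaining settings were chosen after seeing the data. With the rows of several genes added 2 members were higher with LPS after PBS at 2 h and 2 at 6 h, 2 higher after Poly I:C at 6 h, 2 higher at 6 h than at 2 h of LPS after Poly I:C, and the median before LPS at 6 h was -0.63. Without the PBS-then-LPS pair of 2 h, 48 were higher with LPS after Poly I:C at 2 h and 5 at 6 h, 4 higher and 2 lower with LPS after PBS at 6 h, 2 higher with Poly I:C before PBS at 6 h, 1 higher and 1 lower in the interaction at 6 h, 6 higher and 4 lower over time in LPS after Poly I:C, and 39 higher and 2 lower in PBS after Poly I:C. Scaling to protein-coding rows gave Poly I:C medians of -1.71 before LPS and -1.52 before PBS at 2 h, and -0.61 and -0.92 at 6 h, with 1 higher before PBS at 2 h. It gave 0 higher and 3 lower with LPS after Poly I:C at 2 h (median -0.10) and 24 lower at 6 h (-0.28), 0 higher and 53 lower with LPS after PBS at 6 h (-0.64), and 6 positive interactions at 6 h (0.35). The Poly I:C difference was less negative at 6 h for 57 members (1.23), and over time 55 were lower and 0 higher in LPS after PBS, 46 higher in LPS after Poly I:C (0.46) and 53 higher in PBS after Poly I:C (0.63). That scaling also moved the median of all coding rows, to -0.38 before LPS and -0.36 before PBS for Poly I:C at 2 h. For these rows it gave 0.21 for the interaction at 6 h and 0.47 for the difference between times. Over time it gave -0.23 in LPS after PBS, 0.25 in LPS after Poly I:C and 0.21 in PBS after Poly I:C. Relative to these medians the members stood, in that order, at -1.33, -1.17, 0.14, 0.75, -0.49, 0.215 and 0.42. The cause of these shifts was not tested.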
